A study of Mus musculus with 20 samples.

Results

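Transcripts of 10 cytokine receptor chains were followed through mouse T cells with and without the inhibitors of E proteins Id2 and Id3. The chains were *Il7r*, *Il4ra*, *Il21r*, *Il2rb*, *Il6ra*, *Il6st*, *Il27ra*, *Il10ra*, *Il17rb* and *Il18r1*, taken by symbol from the 39179 genes of the deposited expression table. All 10 were listed once and reached an average of at least 10 normalized counts in 1 group or more, as did 15536 genes in all.

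The 20 libraries fell into 5 groups, all given as C57BL/6. Control CD4 single-positive (CD4SP) thymocytes, gave 5 libraries. A group of 3 libraries of CD4SP thymocytes was labelled Id3KO, and another 3 came from Id2-/-Id3-/- CD4SP thymocytes, of the genotype Id2 fl/fl Id3 fl/fl with IL7R-Cre. The thymic cells were sorted as CD4+TCRβ+CD8- from mice of 8 wk. Follicular helper T (TFH) cells, 3 libraries, were sorted as CD4+TCRβ+CD44highCXCR5+ from the spleen, in wild-type animals given sheep red blood cells as the antigen. The last group held 6 lymphomas lacking Id2 and Id3, 4 sorted as CD4+ and 2 as CD8+ T cells, of which 4 came from lymph node, 1 from spleen and 1 from thymus. Mice lacking Id2 and Id3 were examined for lymphoma at 8 to 14 mo. The age and Cre driver behind each sequenced lymphoma, and the age of the mice that gave TFH cells, were not found in the labels or methods. The IL7R-Cre allele carries Cre within the *Il7r* gene. What part the loss of an intact copy has in a lower *Il7r* value in Id2-/-Id3-/- CD4SP cells was not tested. Control thymocytes are called wild type in the labels. The text of the study names Id3+/- thymi where it describes T cell receptor transcripts. For the comparison with Id2-/-Id3-/- CD4SP cells it names littermate controls. Neither the labels nor the text mention Cre in the controls.

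Each value is the authors' average of normalized counts over the libraries of a group. The table held 5 averages per gene and no column for a single library, so no average had an error here, no difference was tested, and each ratio below is a description of a pair of averages. Beside a count of chains past 2-fold stands the share of the 15536 genes past 2-fold in the same direction.

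Cytokine receptors of T cells are built from a chain that binds the ligand and a chain that is often shared. The common gamma chain, encoded by *Il2rg*, joins IL-7Rα, IL-4Rα, IL-21R and IL-2Rβ, and gp130, encoded by *Il6st*, joins the receptors for IL-6 and IL-27. Such receptors signal through Janus kinases (JAKs) and STAT factors, whereas IL-17RB and IL-18R1 belong to families that signal through adaptor proteins. IL-7 maintains naïve T cells, IL-4 supports the TH2 fate, and IL-6, IL-21 and IL-27 act in the differentiation of TFH cells. E proteins bind the E-box, CANNTG, and Id proteins prevent that binding.

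The promoters of 4 chains are printed because these chains were over 2-fold from control in another CD4SP group or in lymphomas and had an entry among the RefSeq promoters used. The entries covered 7 of the 10 chains, all but *Il10ra*, *Il2rb* and *Il27ra*. Each sequence is the 250 bases before the RefSeq start site on GRCm38.p6, read 5′ to 3′ on the strand of the gene, with each CANNTG in capitals. *Il7r* lies on the minus strand at chr15:9529877-9530126, *Il4ra* on the plus strand at chr7:125552021-125552270, *Il6ra* on the minus strand at chr3:89913197-89913446 and *Il17rb* on the minus strand at chr14:30008897-30009146.

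Il7r: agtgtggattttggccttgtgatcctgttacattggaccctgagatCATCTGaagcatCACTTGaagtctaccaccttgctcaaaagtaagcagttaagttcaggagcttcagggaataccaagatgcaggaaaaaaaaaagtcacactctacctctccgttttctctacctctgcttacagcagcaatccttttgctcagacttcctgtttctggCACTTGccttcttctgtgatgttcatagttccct
Il4ra: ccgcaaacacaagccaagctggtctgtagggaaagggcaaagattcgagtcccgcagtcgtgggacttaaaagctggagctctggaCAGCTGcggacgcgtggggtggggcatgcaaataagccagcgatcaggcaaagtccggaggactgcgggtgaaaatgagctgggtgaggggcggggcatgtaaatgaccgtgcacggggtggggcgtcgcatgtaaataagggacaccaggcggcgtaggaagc
Il6ra: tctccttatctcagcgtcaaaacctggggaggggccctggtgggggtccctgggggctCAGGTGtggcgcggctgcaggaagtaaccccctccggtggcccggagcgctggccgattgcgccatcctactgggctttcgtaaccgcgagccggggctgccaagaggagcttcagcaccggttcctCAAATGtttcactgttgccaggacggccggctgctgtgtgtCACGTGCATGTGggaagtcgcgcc
Il17rb: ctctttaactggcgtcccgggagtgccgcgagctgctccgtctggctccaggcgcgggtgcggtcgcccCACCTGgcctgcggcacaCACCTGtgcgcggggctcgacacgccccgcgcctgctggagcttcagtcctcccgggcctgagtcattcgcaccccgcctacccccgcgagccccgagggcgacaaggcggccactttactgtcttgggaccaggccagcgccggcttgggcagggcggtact

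The *Il6ra* promoter held 4 E-boxes, starting at -192, -65, -24 and -18 from the start site, the last pair side by side. *Il17rb* held 2, both CACCTG, at -181 and -163. *Il4ra* held 1, CAGCTG, at -164. *Il7r* held 3, at -204, -192 and -34, and 1 match to the STAT motif TTCNNNGAA at -142. This *Il7r* window lies inside the GENCODE span of the gene (chr15:9505788-9530176), downstream of the GENCODE gene start. A stretch of bases just after its RefSeq start site was not found in a GENCODE transcript of *Il7r*, unlike for the other windows. The *Il7r* positions thus hold for the RefSeq start alone. At least 1 CANNTG was present in all 7 chains with an entry, and in 66.2% of the 32851 promoters of the same length, of which 31.8% held 2 or more. CACCTG on either strand was in 17.2%, CAGCTG in 13.0% and TTCNNNGAA in 7.02% of them. CACCTG and CAGCTG are forms of CANNTG, and all the motifs were read on both strands. These matches describe the letters of the windows.

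The targeted genes were read first. *Id2*, which encodes an inhibitor of E proteins, averaged 2293 in control CD4SP cells, 1764 in the libraries labelled Id3KO, 6.82 in Id2-/-Id3-/- CD4SP cells, 1628 in TFH cells and 30.5 in lymphomas. *Id3* averaged 1991, 2650, 880, 1777 and 857 in the same order. Thus the libraries labelled Id3KO did not have a lower *Id3* average than control, whose genotype is described in different ways as given above. A targeted allele that still yields reads outside the deleted part cannot be told apart from an intact gene in whole-gene counts. *Xist*, which marks cells with an inactive X chromosome, averaged 19.7 in Id2-/-Id3-/- CD4SP cells and 5060 to 10477 in the other groups. *Ddx3y*, a gene of the Y chromosome, averaged 663, 1402, 1478, 533 and 8.04 in control, Id3KO-labelled, Id2-/-Id3-/-, TFH and lymphoma libraries. Sex and group were thus not balanced, and their parts in the ratios cannot be told apart. This holds above all for lymphomas against Id2-/-Id3-/- CD4SP cells, which lay at opposite ends for both genes. The sums of averages were 13386015 to 15497262 per group. In control CD4SP cells the lowest averages were multiples of 4 steps although 5 libraries are labelled, against 3, 3, 3 and 6 steps in the other groups, and a library that is not in that average cannot be told apart from libraries with the same step.

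Marker genes of other cells also differed between groups. *Cd4* averaged 15039, 12552, 6565, 20145 and 4110 in control, Id3KO-labelled, Id2-/-Id3-/-, TFH and lymphoma libraries. The summed level of 8 B cell markers was 122, 82.8, 139, 1979 and 594 in that order, with 7 of 8 over 2-fold higher in TFH cells than in control. *Cd22* alone averaged 1421 in TFH cells. The summed level of 8 NK and γδ T cell markers was 433, 5264, 2068, 851 and 2325, and *Eomes* made up 4727 of it in the libraries labelled Id3KO, where *Ncr1* was listed at 0. *Sox13*, *Tcrg-C1* and *Tcrg-C2* averaged 127, 48.2 and 46.3 in control and 778, 519 and 561 in Id2-/-Id3-/- CD4SP cells. In lymphomas they averaged 1616, 57.5 and 365, with *Tcrg-C1* only 1.19-fold above control. In Id2-/-Id3-/- CD4SP cells *Klrb1c* (38.1), *Klrk1* (4.05) and *Klrd1* (29.9) were below control (73.7, 54.9 and 45.2), whereas *Eomes* was above it (138 against 37.2). Of the 7 markers of iNKT cells, which summed to 3757, 4441, 11196, 8182 and 9531, *Zbtb16* averaged 116, 733, 3912, 48.2 and 2211. The 7 markers of regulatory T cells, *Il2ra* among them, summed to 6475, 5530, 4726, 11857 and 4354. In lymphomas 4 of these 7 were over 2-fold below control and 2 above it. *Foxp3* averaged 591, 481, 280, 1016 and 14.6. The 8 markers of thymic epithelial and stromal cells summed to 128, 212, 1007, 110 and 5478. In lymphomas *Epcam* averaged 3797 and *Col1a1* 1663, against 70.7 and 24.7 in control, and the other 6 were under 10, with *Foxn1* at 1.88, *Krt5* at 0.117 and *Pdgfra* at 0.760. Granulocyte markers summed to 14.5, 4.17, 5.77, 30.1 and 622, and myeloid markers to 144, 250, 253, 207 and 602. Erythroid markers summed to 48.3, 212, 20.3, 24.4 and 400. Markers of basophils and mast cells summed to 3.48, 4.53, 16.2, 16.6 and 282, with *Cpa3* at 277 in lymphomas. *Cd8a* averaged 1388 in lymphomas against 128 in control, whereas *Cd8b1* averaged 461 against 588. The part of such cells in the receptor values was not tested, and in bulk samples fewer cells of a type and less RNA per cell cannot be told apart.

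**Figure D1:**
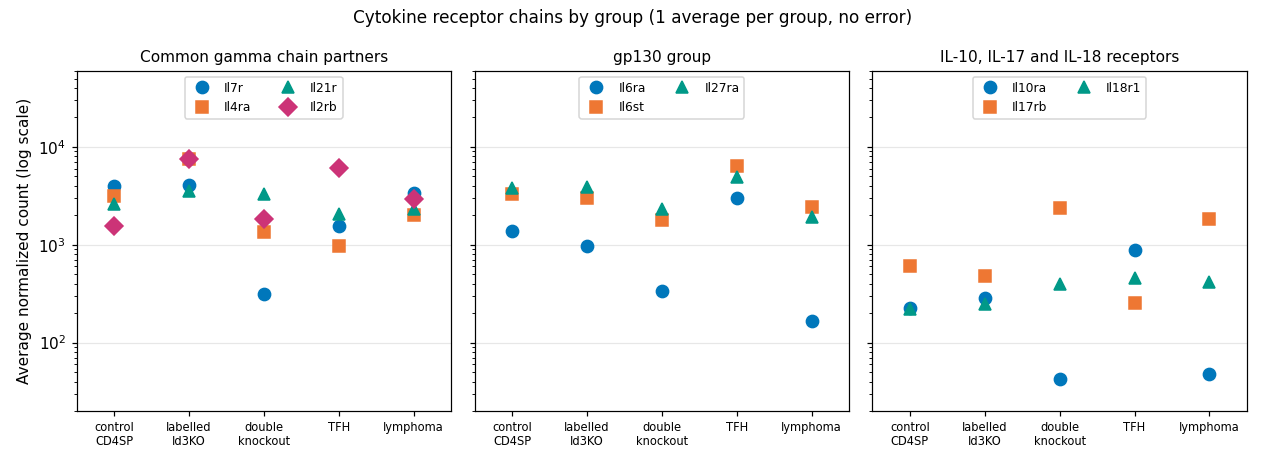
The authors' average normalized count of each chain (log axis) in the 5 groups, in 3 panels by receptor family, with 1 point per group and no error. *Il7r* drops to 311 in Id2-/-Id3-/- CD4SP cells and stands at 3392 in lymphomas, whereas *Il6ra* and *Il10ra* are low in both.

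Among the partners of the common gamma chain, *Il7r* and *Il4ra* were over 2-fold below control in Id2-/-Id3-/- CD4SP cells, *Il2rb* and *Il4ra* were over 2-fold above control in the libraries labelled Id3KO, and *Il21r* stayed within 2-fold of control in all groups. *Il7r* (ENSMUSG00000003882, chr15:9505788-9530176, minus strand), the IL-7 receptor α chain, averaged 3997 in control CD4SP cells, 4070 in the libraries labelled Id3KO, 311 in Id2-/-Id3-/- CD4SP cells, 1538 in TFH cells and 3392 in lymphomas. The Id2-/-Id3-/- average was 12.9-fold below control, a log2 ratio of -3.69, and stood apart from all other groups. TFH cells were 2.60-fold below control, whereas lymphomas were 1.18-fold below control and 10.9-fold above Id2-/-Id3-/- CD4SP cells. The Cre allele described above lies in this gene.

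*Il4ra* (ENSMUSG00000030748, chr7:125552120-125579474, plus strand), the chain that binds IL-4 and also takes part in the IL-13 receptor, averaged 3182 in control, 7586 in the libraries labelled Id3KO, 1343 in Id2-/-Id3-/- CD4SP cells, 975 in TFH cells and 2015 in lymphomas. It was 2.38-fold above control in the libraries labelled Id3KO and 2.37-fold below control in Id2-/-Id3-/- CD4SP cells, so that these groups stood 5.65-fold apart. *Il21r* (ENSMUSG00000030745, chr7:125603429-125633570, plus strand), the IL-21 receptor, averaged 2635, 3544, 3265, 2062 and 2320 in the same order. Its highest and lowest averages differed by 1.72-fold, the narrowest range of the 10 chains. Both genes are neighbours on the same strand, 24.0 kb apart, and their averages took different orders over the groups, since *Il4ra* was lower and *Il21r* 1.24-fold higher in Id2-/-Id3-/- CD4SP cells than in control.

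*Il2rb* (ENSMUSG00000068227, chr15:78479256-78495271, minus strand), the β chain of the receptors for IL-2 and IL-15, averaged 1559 in control, 7477 in the libraries labelled Id3KO, 1849 in Id2-/-Id3-/- CD4SP cells, 6135 in TFH cells and 2943 in lymphomas. The libraries labelled Id3KO and TFH cells, at 4.80-fold and 3.94-fold above control, formed the upper pair, and Id2-/-Id3-/- CD4SP cells lay 1.19-fold above control. *Eomes*, which encodes a T-box factor of NK and memory CD8 T cells, was highest in the same pair of groups, at 4727 and 486 against 37.2 in control, and was 138 in Id2-/-Id3-/- CD4SP cells and 37.0 in lymphomas. *Klrb1c*, a marker of NK cells, averaged 73.7, 22.9, 38.1, 230 and 52.4 in the same order, below control in the libraries labelled Id3KO and 3.12-fold above it in TFH cells. *Klrk1*, another, averaged 54.9, 12.1, 4.05, 42.7 and 29.2.

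The gp130 group was lower in Id2-/-Id3-/- CD4SP cells and higher in TFH cells than in control for all 3 chains, with *Il6ra* differing most. *Il6ra* (ENSMUSG00000027947, chr3:89864059-89913196, minus strand), the chain that binds IL-6, averaged 1375 in control, 980 in the libraries labelled Id3KO, 335 in Id2-/-Id3-/- CD4SP cells, 2994 in TFH cells and 168 in lymphomas. It was 4.10-fold below control in Id2-/-Id3-/- CD4SP cells and 8.20-fold below control in lymphomas, where its level was the lowest of all groups. TFH cells stood 2.18-fold above control and 8.93-fold above Id2-/-Id3-/- CD4SP cells. *Il6st* (ENSMUSG00000021756, chr13:112464070-112510086, plus strand), which encodes the shared transducer gp130, averaged 3340, 3022, 1777, 6364 and 2426 in the same order of groups. Its range was narrower, with Id2-/-Id3-/- CD4SP cells 1.88-fold below and TFH cells 1.91-fold above control. *Il27ra* (ENSMUSG00000005465, chr8:84030294-84042589, minus strand), the chain specific to the IL-27 receptor, averaged 3830, 3925, 2339, 4897 and 1934. It was 1.64-fold below control in Id2-/-Id3-/- CD4SP cells and 1.98-fold below control in lymphomas, the latter passing 2-fold when groups were set to equal totals (log2 ratio -1.19 in place of -0.99).

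*Il10ra* (ENSMUSG00000032089, chr9:45253837-45269149, minus strand), the ligand-binding chain of the IL-10 receptor, averaged 225 in control, 286 in the libraries labelled Id3KO, 42.2 in Id2-/-Id3-/- CD4SP cells, 890 in TFH cells and 47.9 in lymphomas. Both Id2- and Id3-deficient groups were low, at 5.33-fold and 4.70-fold below control. TFH cells were 3.95-fold above control and 21.1-fold above Id2-/-Id3-/- CD4SP cells, the widest range between groups of the 10 chains.

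*Il17rb* (ENSMUSG00000015966, chr14:29996135-30008896, minus strand), the chain that binds IL-25 and IL-17B, averaged 605 in control, 483 in the libraries labelled Id3KO, 2380 in Id2-/-Id3-/- CD4SP cells, 256 in TFH cells and 1845 in lymphomas. It was the single chain past 2-fold above control in Id2-/-Id3-/- CD4SP cells (3.93-fold) and in lymphomas (3.05-fold), and TFH cells were 2.37-fold below control. *Zbtb16*, which encodes the iNKT cell factor PLZF and whose averages are given above, was also highest in Id2-/-Id3-/- CD4SP cells and lymphomas and lowest in TFH cells, whereas in the libraries labelled Id3KO it was above control and *Il17rb* was not. *Il18r1* (ENSMUSG00000026070, chr1:40465552-40500854, plus strand), the ligand-binding chain of the IL-18 receptor, averaged 220, 250, 398, 461 and 417. TFH cells were 2.10-fold, lymphomas 1.90-fold and Id2-/-Id3-/- CD4SP cells 1.81-fold above control, a narrow range with the 3 groups close to each other. It lies between *Il1rl1*, at a distance of 136 bases, and *Il18rap*, at 14.5 kb. *Il1rl1*, the IL-33 receptor chain, averaged 11.6 in control, 24.9 in Id2-/-Id3-/- CD4SP cells and 44.2 in TFH cells.

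**Figure D2:**
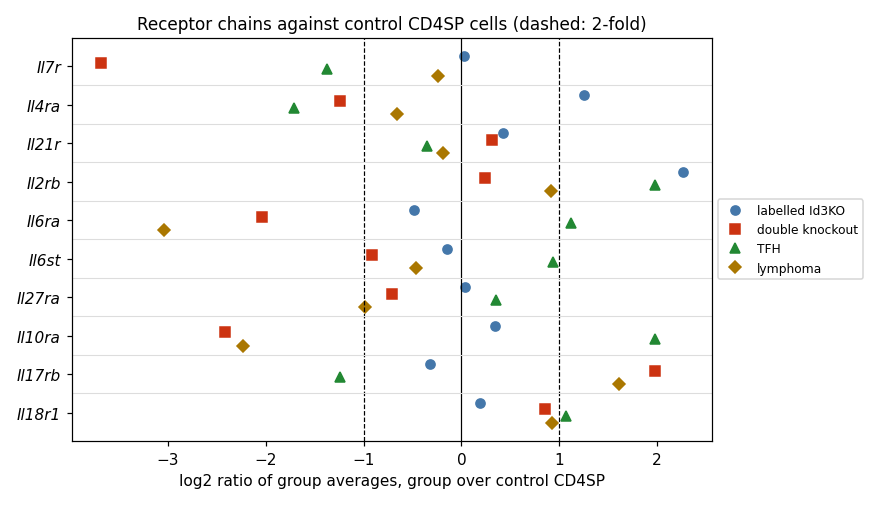
Log2 ratio of the authors' averages, each group over control CD4SP cells, for the 10 chains, with 1 point per group and dashed lines at 2-fold. In Id2-/-Id3-/- CD4SP cells *Il7r* lies at -3.69 and *Il17rb* at 1.98, whereas all 4 points of *Il21r* stay within 2-fold.

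Against control, 4 of the 10 chains (*Il7r*, *Il6ra*, *Il10ra* and *Il4ra*) were over 2-fold lower in Id2-/-Id3-/- CD4SP cells, where 10.9% of the kept genes were lower, and 1 (*Il17rb*) was over 2-fold higher, where 15.0% were higher. The median log2 ratio of the chains was -0.81, beside 0.02 over all 15536 genes. In the libraries labelled Id3KO, 2 chains (*Il2rb* and *Il4ra*) were over 2-fold higher and 0 lower, where 6.31% of genes were higher and 5.77% lower. In TFH cells, 4 chains (*Il6ra*, *Il10ra*, *Il2rb* and *Il18r1*) were higher and 3 (*Il7r*, *Il17rb* and *Il4ra*) lower, where 12.4% of genes were higher and 10.9% lower. In lymphomas, 1 chain (*Il17rb*) was higher and 2 (*Il6ra* and *Il10ra*) lower, where 18.7% of genes were higher and 18.2% lower, so that the share of chains was close to that of all genes. These 4 comparisons share the control libraries. The medians of the chains were 0.11, 0.64 and -0.35 in the libraries labelled Id3KO, TFH cells and lymphomas, beside medians between -0.02 and 0.02 over all genes.

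Between lymphomas and Id2-/-Id3-/- CD4SP cells, 1 chain (*Il7r*) was over 2-fold higher in lymphomas and 0 were lower, where 11.6% of genes were higher and 15.2% lower. *Il6ra* lay at the limit, just under 2-fold lower in lymphomas, and passed it at a log2 ratio of -1.11 with equal totals. The 4 chains farthest from control in Id2-/-Id3-/- CD4SP cells thus differed among themselves in lymphomas. *Il7r* stood near control, *Il6ra* and *Il10ra* were low, and *Il17rb* was high. Against TFH cells, Id2-/-Id3-/- CD4SP cells had 6 chains lower (*Il7r*, *Il6ra*, *Il6st*, *Il10ra*, *Il2rb* and *Il27ra*) and 1 higher (*Il17rb*, 9.30-fold), where 13.8% of genes were lower and 16.2% higher. Against the libraries labelled Id3KO they had 5 lower (*Il7r*, *Il6ra*, *Il10ra*, *Il2rb* and *Il4ra*) and 1 higher (*Il17rb*), where 10.2% of genes were lower and 15.1% higher. These comparisons share the Id2-/-Id3-/- libraries.

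Levels of different chains were compared per kb of exon, as average normalized counts divided by the length of the merged exons. In control CD4SP cells *Il27ra* (1438 per kb), *Il7r* (1129) and *Il21r* (1036) were the highest of the 10 and *Il18r1* (45.6) the lowest. In Id2-/-Id3-/- CD4SP cells *Il21r* (1284) and *Il17rb* (1134) came first, *Il7r* was at place 7 (87.7) and *Il10ra* last (12.1). The libraries labelled Id3KO had *Il2rb* first (1744). In TFH cells *Il27ra* (1838) and *Il2rb* (1431) led, and in lymphomas *Il7r* (958) and *Il21r* (913) led with *Il10ra* last (13.7).

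The balance between chains of the same receptor was read as the ratio of their averages within a group, which needs no scaling between groups. *Il2rg*, which lies on the X chromosome, averaged 12654, 10752, 9587, 8387 and 7826 in the order of groups above, a narrower range than *Il7r*, *Il4ra* or *Il2rb*. The ratio of *Il7r* to *Il2rg* was 0.316 in control, 0.379 in the libraries labelled Id3KO, 0.0324 in Id2-/-Id3-/- CD4SP cells, 0.183 in TFH cells and 0.433 in lymphomas. The ratio of *Il2rb* to *Il2rg* was 0.123, 0.695, 0.193, 0.732 and 0.376, and the ratio of *Il4ra* to *Il2rg* was 0.251, 0.706, 0.140, 0.116 and 0.257, so that both were high in the libraries labelled Id3KO and *Il2rb* alone was high in TFH cells. The ratio of *Il21r* to *Il2rg* was 0.208, 0.330, 0.341, 0.246 and 0.296.

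The ratio of *Il6ra* to *Il6st* was 0.412 in control, 0.324 in the libraries labelled Id3KO, 0.189 in Id2-/-Id3-/- CD4SP cells, 0.470 in TFH cells and 0.0692 in lymphomas. Thus the ligand-binding chain was further below control than gp130 in both Id2- and Id3-deficient groups, with log2 changes of the ratio of -1.13 and -2.57, and in TFH cells the pair was near its control ratio at 0.19. The ratio of *Il27ra* to *Il6st* changed by at most 0.58 on the log2 scale. *Il10rb*, the second chain of the IL-10 receptor, averaged 263, 369, 290, 628 and 271, and the ratio of *Il10ra* to it was 0.857, 0.777, 0.146, 1.42 and 0.177. *Il17ra*, which pairs with IL-17RB, averaged 2934, 2819, 1555, 2458 and 1571, and the ratio of *Il17rb* to it was 0.206, 0.171, 1.53, 0.104 and 1.17. In Id2-/-Id3-/- CD4SP cells and lymphomas the 2 chains of this receptor therefore lay on opposite sides of control. *Il18rap*, the accessory chain of the IL-18 receptor, averaged 48.2, 46.8, 24.8, 232 and 95.3, and the ratio of *Il18r1* to it was 4.56, 5.34, 16.1, 1.99 and 4.38.

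**Figure D3:**
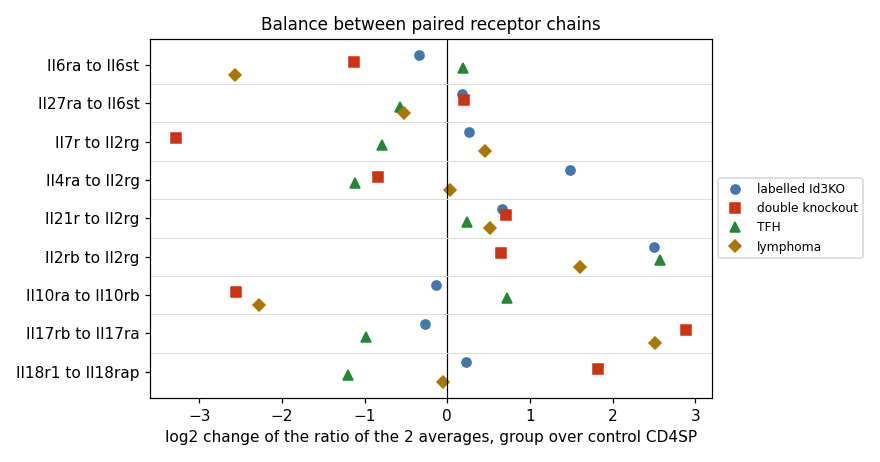
Log2 change, group over control CD4SP cells, of the ratio between the averages of paired receptor chains, with 1 point per group. The ratio of *Il7r* to *Il2rg* is farthest to the left in Id2-/-Id3-/- CD4SP cells (-3.29), and that of *Il17rb* to *Il17ra* farthest to the right (2.89).

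Another 53 receptor chains were listed by family, of which 35 reached 10 normalized counts in a group. Of these 35, 8 were over 2-fold higher and 5 lower in Id2-/-Id3-/- CD4SP cells than in control, where 15.0% of all kept genes were higher and 10.9% lower. The counts were 6 and 5 in the libraries labelled Id3KO (6.31% and 5.77% of all kept genes), 10 and 5 in TFH cells (12.4% and 10.9%), and 10 and 8 in lymphomas (18.7% and 18.2%). *Ifngr2*, the signalling chain of the interferon γ receptor, averaged 1666 in control, 1133 in the libraries labelled Id3KO, 238 in Id2-/-Id3-/- CD4SP cells, 200 in TFH cells and 465 in lymphomas. *Ifngr1*, its ligand-binding chain, averaged 947, 2031, 650, 597 and 1171. *Il1r2*, the decoy receptor for IL-1, averaged 11.0, 205, 109, 253 and 33.0, above control in all 4 other groups. *Il20rb*, a chain of the receptors for IL-19, IL-20 and IL-24, averaged 26.3, 25.2, 141, 40.4 and 99.0, high in the same 2 groups as *Il17rb*. *Il9r*, the IL-9 receptor chain that pairs with the common gamma chain, averaged 12.4, 36.9, 57.8, 866 and 190. *Il2ra*, the α chain of the IL-2 receptor, averaged 455, 552, 316, 454 and 67.5, lowest in lymphomas. *Prlr*, the prolactin receptor, averaged 111, 45.9, 13.0, 5.25 and 27.5, below control in every other group. *Il1r1*, the signalling receptor for IL-1, averaged 6.00, 5.48, 10.0, 337 and 124, and *Il15ra*, the α chain of the IL-15 receptor, averaged 60.3, 145, 54.7, 245 and 10.4.

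**Figure D4:**
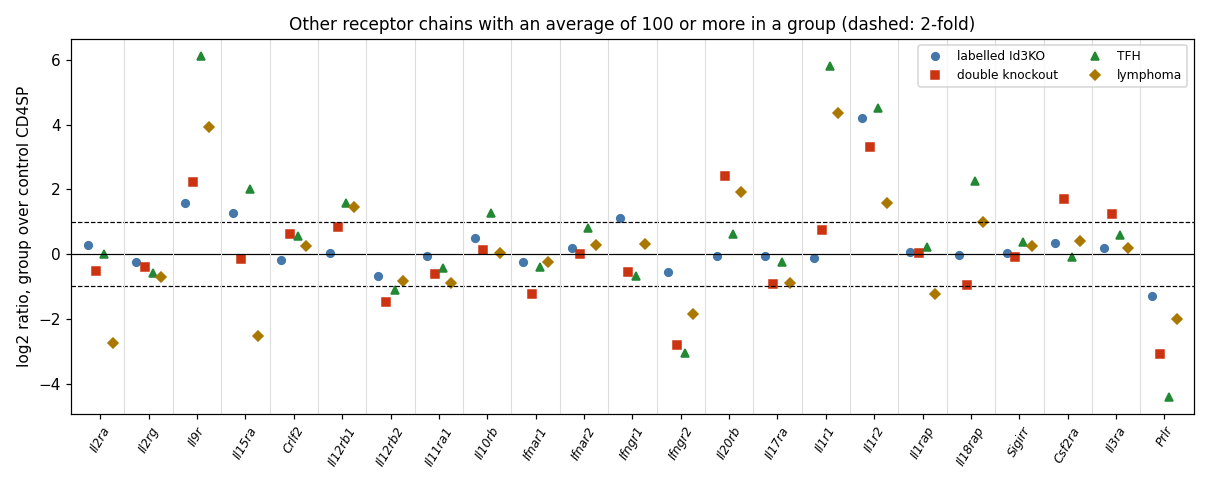
Log2 ratio of the authors' averages, each group over control CD4SP cells, for the other receptor chains with an average of at least 100 normalized counts in a group, with dashed lines at 2-fold. *Ifngr2* lies at -2.81 and *Il20rb* at 2.42 in Id2-/-Id3-/- CD4SP cells, and *Il9r* at 6.13 in TFH cells.

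Of 21 genes for ligands of these receptors, 10 reached 10 normalized counts in a group, and 5 of them were over 2-fold higher and 1 lower in Id2-/-Id3-/- CD4SP cells than in control, where 15.0% of all kept genes were higher and 10.9% lower. The counts were 5 and 0 in the libraries labelled Id3KO (6.31% and 5.77%), 7 and 1 in TFH cells (12.4% and 10.9%), and 5 and 0 in lymphomas (18.7% and 18.2%). *Il4* averaged 16.8 in control, 64.1 in the libraries labelled Id3KO, 178 in Id2-/-Id3-/- CD4SP cells, 415 in TFH cells and 92.7 in lymphomas, and *Il21* averaged 109, 140, 420, 1551 and 440. In Id2-/-Id3-/- CD4SP cells the averages of these ligands were thus above control beside an *Il4ra* average below it and an *Il21r* average within 2-fold of it. *Ebi3*, which encodes a subunit of IL-27, averaged 8.89, 67.1, 79.6, 149 and 33.8, above control in all 4 other groups.

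All 11 JAK and STAT genes listed were kept, and 10 were within 2-fold of control in Id2-/-Id3-/- CD4SP cells and 1 was lower, where 10.9% of all kept genes were lower. The exception, *Stat4*, which relays IL-12 signals, averaged 436 in control, 2687 in the libraries labelled Id3KO, 151 in Id2-/-Id3-/- CD4SP cells, 2529 in TFH cells and 38.6 in lymphomas, highest in the 2 groups in which *Il2rb* was highest. Of 16 genes that cytokine signals induce, 0 were over 2-fold higher and 6 lower in Id2-/-Id3-/- CD4SP cells than in control, beside 15.0% and 10.9% of all kept genes. The counts were 1 and 1 in the libraries labelled Id3KO (6.31% and 5.77%), 7 and 3 in TFH cells (12.4% and 10.9%), and 1 and 7 in lymphomas (18.7% and 18.2%). *Bcl2l1*, the gene of the survival protein BCL-XL, averaged 751, 765, 315, 383 and 253 in the order of groups above, and *Socs3*, the feedback inhibitor that binds gp130, averaged 307, 432, 133, 1281 and 129. *Bcl2*, a survival gene that IL-7 maintains in T cells, averaged 3463, 4672, 1643, 689 and 856, and *Cish*, a feedback inhibitor induced through STAT5, averaged 641, 903, 409, 370 and 107. The lowest *Bcl2* average was thus in TFH cells and the lowest *Cish* average in lymphomas. *Bcl6*, which encodes the factor that directs the TFH fate, averaged 530, 635, 549, 3543 and 402, and *Tbx21*, which encodes T-bet, averaged 62.7, 88.2, 22.5, 480 and 16.7, both highest in TFH cells.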

How the data were processed

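RNA was sequenced as strand-specific libraries. The authors aligned the reads to mm10 and estimated counts with RSEM, and the deposited values, unit signal, are counts normalized with DESeq and averaged per group (tool versions not given in the sources used here). Beside these, the table held 12 columns of the authors' own comparisons (fold change, p-value and false discovery rate for 4 comparisons), which were not used. With 5 columns of averages and 0 columns per library, no test and no error could be computed, and the depth per library is unknown. Genes whose average reached 10 in 1 group or more were kept. Log2 ratios of averages used no pseudocount, and medians of lists a pseudocount of 1. A count or share was called moved where an alternative changed it by over 1.5 times. For a log2 ratio the limit was a change of 0.585. Counting of genes past 2-fold was run on simulated averages with Poisson noise alone, low averages raised and planted changes well past 2-fold. That run checks the arithmetic and does not cover variation between animals or genes with low averages. Symbols, coordinates (mm10) and exon lengths came from GENCODE M21 and promoters from RefSeq (GRCm38.p6). Named were the chains, the partners in their receptors, *Id2*, *Id3* and *Xist*, at most 6 other chains and ligands whose higher average reached 100, and at most 3 JAK, STAT or induced genes, by the largest log2 ratio past 2-fold with control. *Eomes*, *Zbtb16*, *Il1rl1*, *Ddx3y* and the markers given singly were chosen after their values were seen. The chains and lists were chosen with earlier results of these data known. Equal totals, a median ratio of 0, pseudocounts of 1 and 10, folds of 1.5 and 3, and a least average of 100 were tried. Python 3.11.15, numpy 2.4.6, pandas 2.3.3 and matplotlib 3.10.9 were used.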

Additional observations from a re-analysis of the deposited data

How the results depend on the processing

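The alternatives for the ratios were equal totals, a median ratio of 0 and pseudocounts of 1 and 10. None of the 280 recomputed log2 ratios of the 10 chains changed by over 0.585, a 1.5-fold change of the ratio itself. The sign changed in 3 of them, all with equal totals and all near 0: *Il7r* (0.03 to -0.02) and *Il27ra* (0.04 to -0.02) in the libraries labelled Id3KO against control, and *Il18r1* (0.07 to -0.05) in lymphomas against Id2-/-Id3-/- CD4SP cells. Equal totals shifted all genes by -0.20 in lymphomas and by 0.09 or less in size in the other groups. The median log2 ratio over all genes against control was already between -0.02 and 0.02, so setting it to 0 shifted ratios little. The lowest average of a chain was 42.2, so a pseudocount of 10 moved ratios little too. *Il10ra* in Id2-/-Id3-/- CD4SP against TFH cells, for example, went from -4.40 to -4.11. None of these alternatives could therefore have passed the limit of 0.585, and the lack of larger changes is no evidence of robustness. The number of chains past the fold depended on where it was set. At 1.5-fold it was 8 in place of 5 between Id2-/-Id3-/- CD4SP cells and control, 7 in place of 3 between lymphomas and control, and 4 in place of 1 between lymphomas and Id2-/-Id3-/- CD4SP cells. At 3-fold it was 1 in place of 2 for the libraries labelled Id3KO and 3 in place of 7 for TFH cells. With equal totals it was 2 in place of 1 between lymphomas and Id2-/-Id3-/- CD4SP cells, and *Il27ra* passed 2-fold between lymphomas and control, as it did with a median ratio of 0 (-1.01). The order of the 5 averages was the same with equal totals for 6 of 10 chains, the exceptions being *Il7r*, *Il21r*, *Il27ra* and *Il18r1*. With a least average of 100, the share of genes past 2-fold in either direction was 6.08% in place of 12.1% for the libraries labelled Id3KO against control, 15.2% in place of 26.8% for lymphomas against Id2-/-Id3-/- CD4SP cells, and 16.7% in place of 25.3% for Id2-/-Id3-/- CD4SP cells against the libraries labelled Id3KO. No paired analysis was possible because the table holds 1 average per group and no value per library, and for the same reason no library could be left out.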
